A study of Homo sapiens with 4 samples.

Results

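The 8 genes PHOX2A, HAND2, GATA2, GATA3, ISL1, TBX2, TFAP2B and SOX11 encode transcription factors of the adrenergic (noradrenergic) cell identity of neuroblastoma. They were chosen by name out of 20162 protein-coding genes of the GENCODE v44 annotation on GRCh37 (hg19). Each gene was described by every nucleosome called within 5 kb of its transcription start site (TSS), 10 kb in all. All 8 could be measured in every library, as could 20078 of the 20162 genes.

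Neuroblastoma arises from neural crest cells on the way to becoming sympathetic neurons and chromaffin cells. Adrenergic tumour cells keep the regulatory programme of that lineage, in which a small group of transcription factors bind one another's enhancers and their own in what is called a core regulatory circuit. PHOX2A and HAND2 switch on the enzymes of noradrenaline synthesis, GATA2 and GATA3 are zinc-finger factors needed for sympathetic neurons, ISL1 is a LIM-homeodomain factor, TBX2 a T-box factor, TFAP2B an AP-2 factor of the neural crest and SOX11 an HMG-box factor of immature neurons. A nucleosome, DNA wound around a histone octamer, hinders the binding of many factors, and active promoters usually carry a nucleosome-free stretch just upstream of the TSS followed by a well-placed first (+1) nucleosome. Micrococcal nuclease (MNase) cuts the linker DNA, so that the midpoint (dyad) of each protected fragment marks a nucleosome.

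The samples were cultures of BE(2)C, a long-established human neuroblastoma line in which MYCN is amplified, transfected with non-targeting siRNA (control) or with siRNA against MYCN (N-myc knockdown), with 2 libraries in each group. All cells came from 1 line labelled wild type. The labels give a siRNA concentration of 80 nM, whereas the methods of the study state another, and cells were taken the day after transfection. The replicates are called biological in the methods, but nothing says which cultures they came from, so spread between libraries may be partly technical. The files hold no transcripts, so neither the fall of MYCN nor the adrenergic identity of the cells could be checked in them.

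The libraries held 10527010 to 12178724 nucleosomes of the core length, each supported by at least 6 reads, and 147370973 to 242544884 reads in all. Depth went with the replicate number: the first control and first knockdown library had a median of 12 reads per nucleosome, the second of each 18. Around the 8 TSSs each library had between 32 and 46 nucleosomes in 10 kb. With 2 libraries against 2, an exact two-sided permutation test of one value cannot give a p below 0.33, so a gene whose groups did not overlap had p = 0.33.

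Of the 8 promoters, those of HAND2 and ISL1 show most plainly a nucleosome-free stretch, and their sequences upstream of the TSS are given from GRCh37, 5' to 3' on the strand of the gene. Positions count from 0 at the TSS base. HAND2 (chr4:174451381-174451619, minus strand, positions -239 to -1) and ISL1 (chr5:50679031-50679281, plus strand, -251 to -1) were free of nucleosomes in all 4 libraries. Capitals mark matches to the GATA motif AGATAA on either strand and, in HAND2, the homeodomain motif TAATTA that overlaps it.
HAND2: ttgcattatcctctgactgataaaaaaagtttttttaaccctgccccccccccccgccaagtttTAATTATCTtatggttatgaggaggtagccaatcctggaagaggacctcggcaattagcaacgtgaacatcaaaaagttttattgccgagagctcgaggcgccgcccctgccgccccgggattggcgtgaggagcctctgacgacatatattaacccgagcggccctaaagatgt
ISL1: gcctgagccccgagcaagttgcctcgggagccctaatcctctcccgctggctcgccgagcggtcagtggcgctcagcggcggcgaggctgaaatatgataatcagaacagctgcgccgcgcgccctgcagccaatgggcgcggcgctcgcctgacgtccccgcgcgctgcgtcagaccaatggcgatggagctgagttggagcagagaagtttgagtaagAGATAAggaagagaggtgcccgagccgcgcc

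The promoter window, positions -200 to 50 from the TSS, was called empty when no nucleosome lay at least 80% inside it. HAND2, GATA3 and ISL1 were empty in all 4 libraries, 3 of 8 genes against 32.3% of all protein-coding genes. SOX11 was the only one of the 8 occupied in all 4 libraries, a state held by 19.9% of all genes. PHOX2A was empty in 3 libraries, GATA2 and TFAP2B each in 1 alone, and TBX2 in 2. The shares of empty windows among the 8 genes were thus near those of the genome. The map of called nucleosomes shows each of these arrangements.

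**Figure D1:**
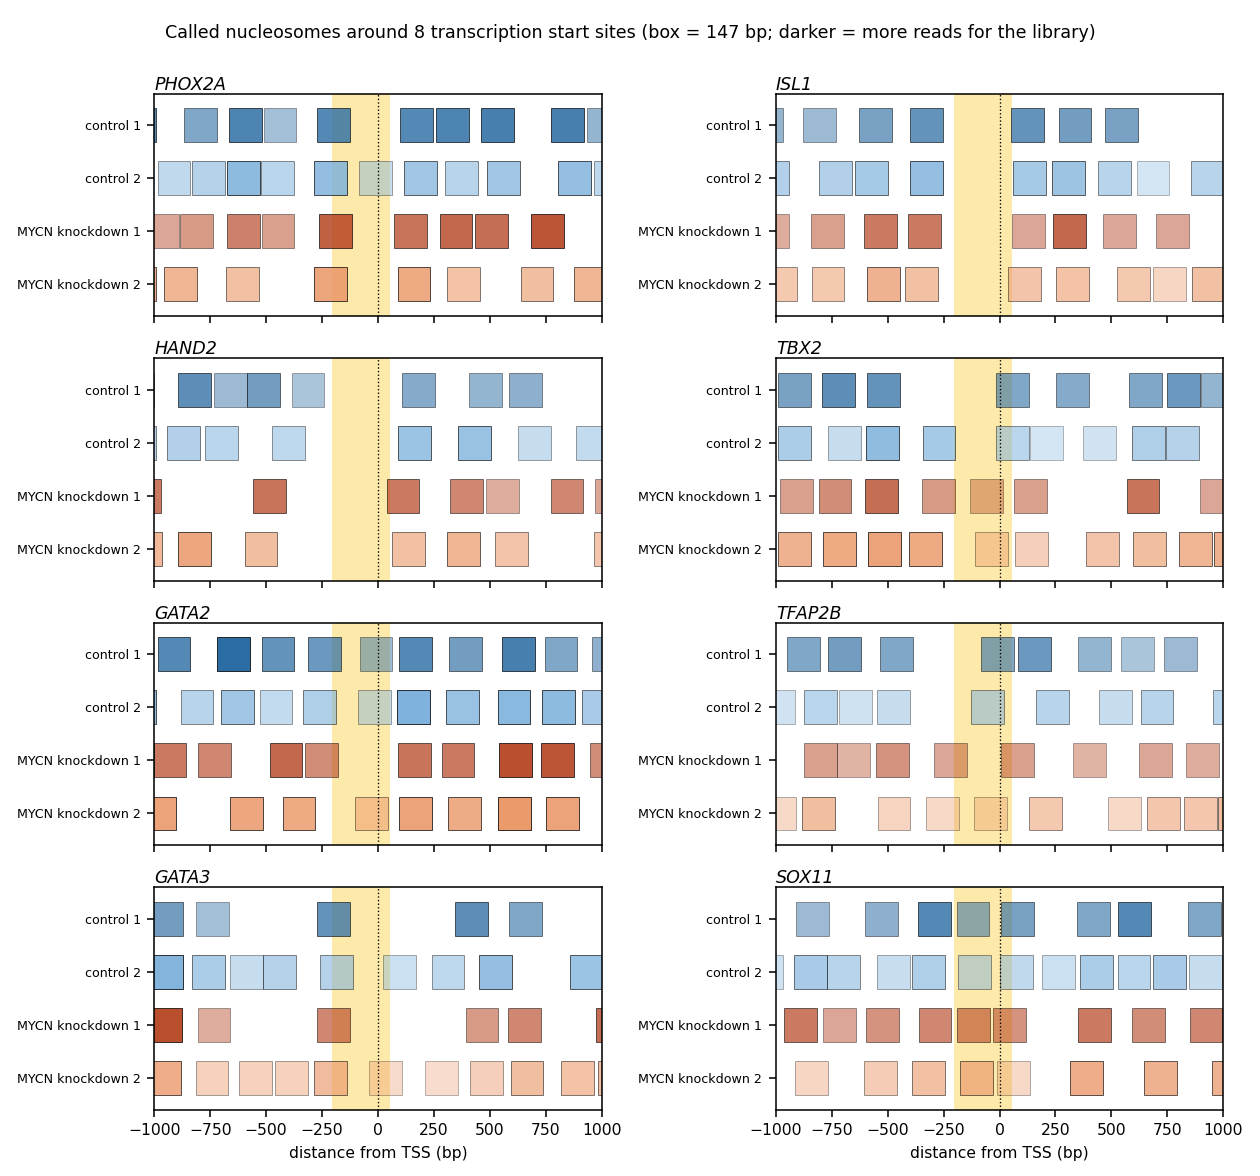
Called nucleosomes within 1000 bp of the TSS of the 8 genes, 1 row per library (blue, control; orange, MYCN knockdown). Each box is 1 nucleosome core drawn to scale, darker with more reads relative to the library's median, and the yellow band is the window from -200 to 50 bp. The band holds no nucleosome dyad at HAND2 and ISL1 in any row, holds at least one at SOX11 in every row, and at TBX2 holds one only in the knockdown rows.

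The gap, defined as the widest stretch between neighbouring nucleosome edges that reaches into the window, ranged over the 8 genes from a mean of 50.25 bp at SOX11 to 431.8 bp at HAND2. The median of the 8 means was 206.5 bp, against 168.8 bp over all genes. Both knockdown libraries exceeded both controls at 3 genes (HAND2, GATA2 and ISL1), against 16.0% of all genes, and were below both at 2 (TBX2 and TFAP2B), against 13.9%. The median difference, knockdown minus control, was 5.75 bp over the 8 genes and 2.0 bp over all genes. Taken within each replicate number, the median over the 8 genes had an SD of 8.485 bp. An alternative measure was the gap that holds the TSS, 0 bp where a nucleosome covered the TSS, as at TBX2 in all 4 libraries. By it the difference was 0.0 bp at TBX2 and 76.0 bp at TFAP2B, so neither was narrower in knockdown. At HAND2, GATA2 and ISL1 it stayed positive, at 98.5, 134.0 and 8.5 bp.

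**Figure D2:**
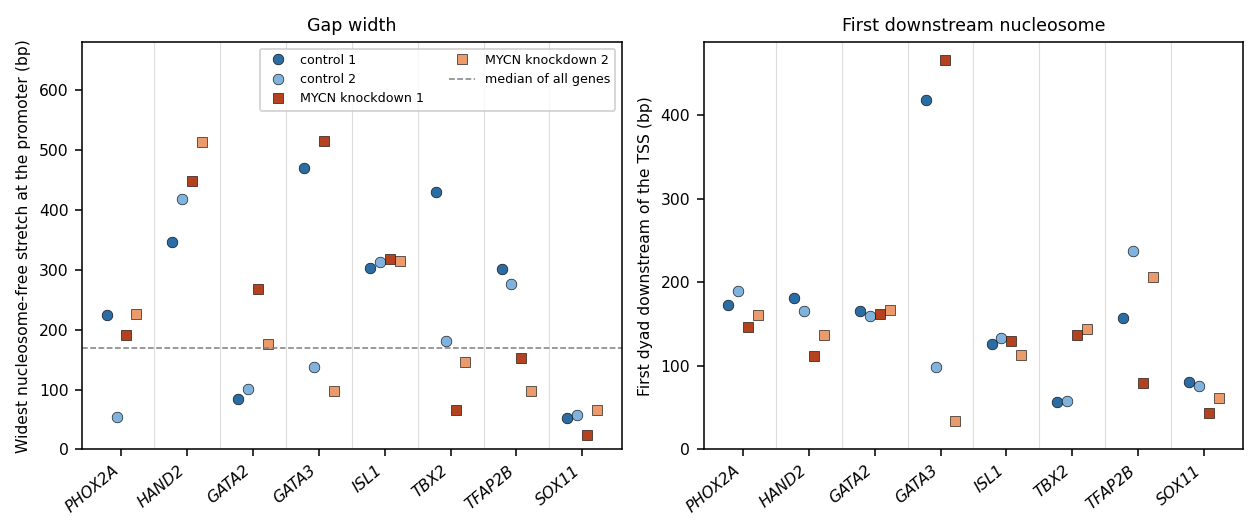
Left, width in bp of the widest nucleosome-free stretch at the promoter; right, position in bp of the first dyad downstream of the TSS. Each point is 1 library (circles, control; squares, MYCN knockdown) and the dashed line is the median over all genes, 168.8 bp. The 4 widths of ISL1 lie within 15 bp of each other, while those of GATA3 span 418 bp and follow the replicate number.

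HAND2, the basic helix-loop-helix factor of sympathetic precursors, lies at chr4:174446120-174451380 on the minus strand with its TSS at 174451380 in exon 1 of 2. Its promoter gap measured 347 and 418 bp in the control libraries and 449 and 513 bp in the knockdown libraries. The groups did not overlap, and the knockdown gap was wider by 102 bp at replicate 1 and by 95 bp at replicate 2 (382.5 ± 50.2 against 481.0 ± 45.25 bp, SD, n = 2, exact permutation p = 0.33). The mean width stood at percentile 92.8 of all genes. The groups stood apart at both edges. On the upstream edge the bounding dyads were at -313 and -400 in control and at -484 and -523 in knockdown. Downstream, the first dyad lay at 181 and 165 bp in control and at 112 and 137 bp in knockdown, nearer the TSS in both knockdown libraries. The upstream control nucleosome at -313 rested on 6 reads, the minimum for a call. When only nucleosomes of at least 10 reads were kept, the gap of that library became 546 bp and exceeded both knockdown values, so the order of the groups rests on that nucleosome. In the 1 kb upstream of the TSS the reads numbered 45 and 47 in control and 16 and 50 in knockdown, lowest in the first knockdown library. As the second library of each group was deeper, the first control was the highest relative to depth. The long non-coding RNA gene HAND2-AS1, whose TSS lies 1530 bp into HAND2 on the other strand, shares this 10 kb.

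ISL1, the LIM-homeodomain factor of sympathetic and motor neurons (chr5:50679282-50690564, plus strand, TSS at 50679282), had the most constant gap of the 8. Widths of 304, 313, 319 and 315 bp were found in the 2 control and 2 knockdown libraries in turn, a range of 15 bp. The knockdown values lay just above the control values (308.5 ± 6.364 against 317.0 ± 2.828 bp, SD, n = 2, exact permutation p = 0.33), a difference of 8.5 bp. The downstream edge was set by a first nucleosome at 126, 133, 130 and 113 bp, and the upstream edge by one at -325, -327, -336 and -349 bp. These 2 nucleosomes carried 8 to 28 reads. The stretch from -251 to 39 bp, 291 bp long, was free in all 4 libraries and holds 27 CpG sites upstream of the TSS. The long non-coding RNA gene ISL1-DT, on the other strand (chr5:50668570-50679166, canonical TSS at -3951 bp), reaches into this stretch. With at least 10 reads required, the first downstream nucleosome of the first knockdown library (8 reads) was lost and its gap became 502 bp.

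PHOX2A, the paired-like homeodomain factor that activates dopamine beta-hydroxylase (chr11:71950121-71956708, minus strand, TSS at 71955220), had gaps of 224 and 54 bp in control and 191 and 227 bp in knockdown. The groups overlapped, and the second control library stood apart through 1 nucleosome at -10 with 11 reads, which the other libraries lacked. Its -1 nucleosome lay at -198, -211, -191 and -213 bp with 18 to 31 reads. With 50% inside as the rule, the PHOX2A window was empty in the second knockdown library alone. The first downstream dyad was at 173 and 190 bp in control. Both knockdown positions were nearer the TSS, by -26 bp at replicate 1 and by -29 bp at replicate 2 (mean difference -27.5 bp, exact permutation p = 0.33).

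GATA2, a zinc-finger factor of the haematopoietic and sympathoadrenal lineages (chr3:128198270-128212044, minus strand, TSS at 128212044), had a nucleosome over its TSS in 3 of 4 libraries. It lay at -9 with 8 reads and at -15 with 11 reads in control, and at -29 with 15 reads in the second knockdown library, while the first knockdown library had none. The gap accordingly measured 84 and 101 bp in control and 268 and 177 bp in knockdown (means 92.5 and 222.5 bp, groups not overlapping, exact permutation p = 0.33). Thinning to equal depth, a single random draw of reads, removed the nucleosome of the second control library. It gave that library a gap of 275 bp, above both knockdown widths. Another draw could have kept this nucleosome of 11 reads. The first downstream nucleosome of GATA2 was the steadiest of the 8, at 166, 159, 162 and 167 bp with 18, 47, 16 and 32 reads. The long non-coding RNA gene GATA2-AS1 starts 3424 bp into GATA2 on the other strand.

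GATA2 has further coding starts downstream. The one used by 2 coding transcripts, 4671 bp into the gene, had narrow gaps of 40, 30, 25 and 64 bp. Its window was empty in the second knockdown library alone. The start at 5285 bp had an empty window in all 4 libraries, with gaps of 153, 201, 247 and 182 bp. The start at 1294 bp was occupied in all 4 libraries, and those at 2553, 4167 and 11257 bp were empty in some libraries only.

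GATA3 (chr10:8087341-8117161, plus strand, TSS at 8096651), required for the noradrenergic phenotype of sympathetic neurons, had gaps that went with the replicate number, and so with depth, in both groups. Its gap was 470 bp in the first control and 516 bp in the first knockdown library, but 138 and 98 bp in the deeper second libraries. There a nucleosome appeared at 98 bp with 9 reads (control) and at 34 bp with 7 reads (knockdown), and the first dyad of the shallower libraries lay at 418 and 465 bp. The nucleosome at 34 bp covered the TSS, although it lay less than 80% inside the window, which was therefore called empty. After thinning to equal depth the gaps were 470, 353, 516 and 550 bp, all over 250 bp. A nucleosome at -199, -187, -198 and -211 bp formed the upstream edge in every library, with 13 to 21 reads, and lay too far upstream to count as 80% inside the window. With 50% inside as the rule the GATA3 window was occupied in all 4 libraries, by this nucleosome in both controls and the first knockdown library and by the one at 34 bp in the second knockdown library. A coding start at -1084 bp from the canonical one also had an empty window in all 4 libraries, with gaps of 307, 261, 422 and 277 bp. The window of the most upstream coding start, at -9310 bp, was empty in the second control library alone. That of a start at 3711 bp was occupied in all 4 libraries. GATA3-AS1, a divergent long non-coding RNA gene, starts at -1204 bp.

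TBX2, the T-box repressor (chr17:59477204-59486827, plus strand, TSS at 59477204), was the only one of the 8 whose window was empty in both control libraries and occupied in both knockdown libraries. Of the 4 genes empty in both controls this was 1, against 5.25% of the 8456 such genes in the genome. The opposite order, occupied in both controls and empty in both knockdown libraries, was found at 0 of the 3 members occupied in both controls (GATA2, TFAP2B and SOX11), against 7.73% of all such genes. The control libraries had no dyad between -271 and 57 bp. Their first downstream nucleosome lay at 57 bp with 12 reads and at 58 bp with 15 reads. In knockdown a nucleosome lay at -59 with 6 reads and at -38 with 11 reads, and the next at 137 bp with 9 reads and 144 bp with 12 reads. The knockdown nucleosomes thus flanked the control position on either side, and the first downstream dyad differed by 83.0 bp (57.5 ± 0.7071 against 140.5 ± 4.95 bp, SD, n = 2, exact permutation p = 0.33). The gap was 430 and 182 bp in control and 66 and 146 bp in knockdown. The nucleosome of the first knockdown library was at the minimum of 6 reads. With only nucleosomes of at least 10 reads that window became empty and its gap 766 bp, so the window was then occupied in the second knockdown library alone. After thinning to equal depth the window calls at TBX2 stayed as they were. Thinning could only remove nucleosomes, and it left the first knockdown library, the shallowest, whole. Only the nucleosome at -38 could therefore have changed a call, so this says little about the other 3 libraries.

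Further upstream the TBX2 promoter was the most regular of the set. Dyads lay at -520, -523, -526 and -515 bp with 16, 30, 17 and 32 reads, at -916, -918, -909 and -916 bp, and at -1318, -1322, -1322 and -1316 bp. These 3 positions differed by at most 11 bp among the 4 libraries. The annotation places the TSS of a long non-coding RNA gene on the other strand 400 bp into TBX2.

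TFAP2B, the AP-2 factor of neural crest derivatives (chr6:50786436-50815332, plus strand, TSS at 50786584), had gaps of 302 and 276 bp in control and 152 and 98 bp in knockdown. The groups did not overlap (289.0 ± 18.38 against 125.0 ± 38.18 bp, SD, n = 2, exact permutation p = 0.33). The control gaps ended upstream at a nucleosome found in all 4 libraries, at -460, -476, -480 and -472 bp with 10 to 12 reads. Knockdown libraries had 1 more nucleosome inside this stretch, at -220 and at -254 bp, each with 8 reads. The widest stretch of the second knockdown library lay at 35 to 132 bp, downstream of the TSS. With only nucleosomes of at least 10 reads, which also removed the ones at -39 and 79 bp and others further downstream in the first knockdown library, the order was the opposite, with gaps of 302, 276, 1674 and 531 bp. Measured from a coding start 148 bp further upstream, the TFAP2B window was empty in both control libraries and occupied in both knockdown libraries. The nucleosome nearest the TSS varied, at -11 and -53 bp in control, at -39 bp in the second knockdown library, and at 79 bp in the first. TFAP2B also had the fewest reads, 2.241 to 2.619 reads in 10 kb per 1000000 reads in called nucleosomes (RPM), and the promoter lowest in GC among the 8 (43.0%).

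SOX11, the SoxC factor of immature neurons (chr2:5832516-5841517, plus strand, a single exon of 9002 bp, TSS at 5832516), had the narrowest gaps, 53, 57, 25 and 66 bp. Their mean stood at percentile 1.783 of all genes. A nucleosome at -119 and -112 bp in control and at -117 and -105 bp in knockdown filled the window in every library, with 10, 13, 12 and 21 reads and a mean fuzziness of 25.4 bp. A second nucleosome followed directly, at 81 and 76 bp in control and at 44 and 62 bp in knockdown, closer to the TSS in both knockdown libraries (mean difference -25.5 bp, exact permutation p = 0.33). Thus the TSS of SOX11 lay in the free stretch between this pair in control, 53 and 41 bp wide. In both knockdown libraries it lay under the second nucleosome. The bases under the upstream one include an AP-2 match at -77 to -69. Thinning to equal depth removed the nucleosome at 62 bp from the second knockdown library and widened its gap to 346 bp, while the nucleosome over the window remained.

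**Figure D3:**
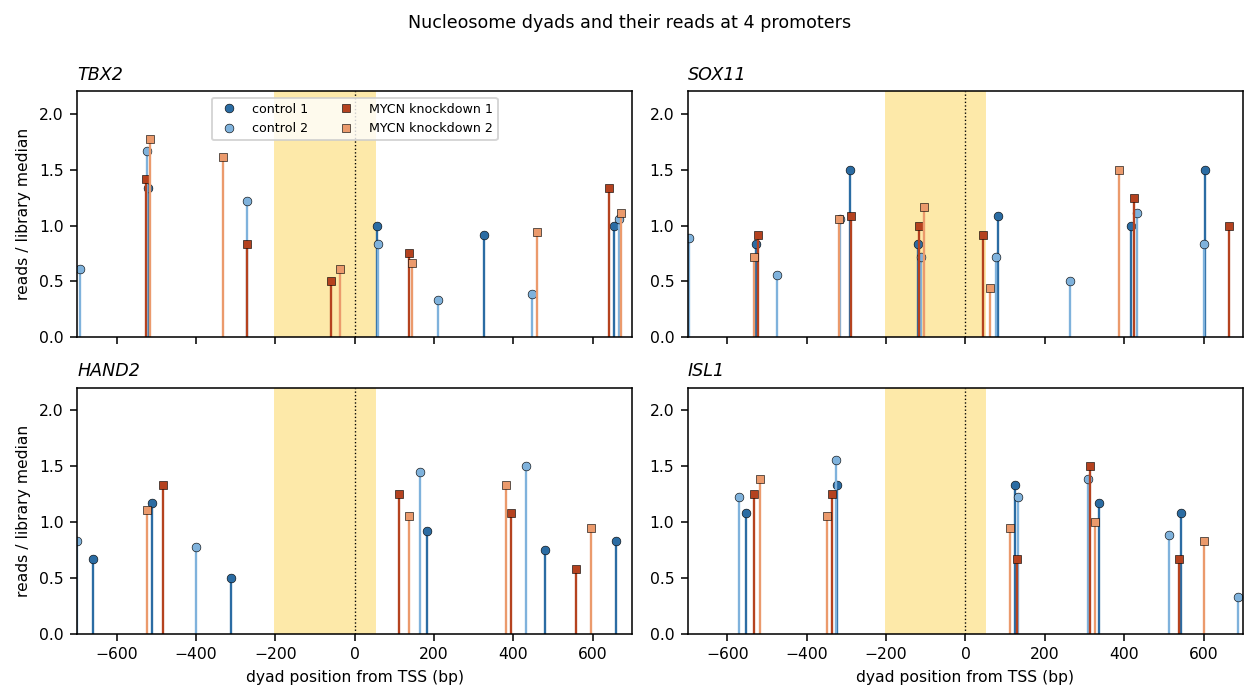
Dyad position in bp from the TSS against reads divided by the library's median reads per nucleosome, for TBX2, SOX11, HAND2 and ISL1. Each stem is 1 nucleosome (circles, control; squares, MYCN knockdown) and the yellow band is the window from -200 to 50 bp. At TBX2 the 2 stems inside the band upstream of the TSS come from the knockdown libraries, and at SOX11 the stems of all 4 libraries stand together near -113.25 bp.

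Across the 8 genes, the first downstream dyad stayed within 20 bp over the 4 libraries at 2 (GATA2 and ISL1), against 19.2% of all genes. It lay nearer the TSS in both knockdown libraries at 3 genes (PHOX2A, HAND2 and SOX11), against 14.7% of all genes, and farther at 1 (TBX2), against 16.3%. The median range over the 4 libraries was 56.0 bp for the 8 genes and 70.0 bp for all. Gaps over 250 bp in all 4 libraries were found at 2 genes (HAND2 and ISL1), against 12.2% of all genes.

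The amount of nucleosomal DNA at the 8 genes was close in control and knockdown. The RPM of the 10 kb was lower in both knockdown libraries at GATA2, GATA3 and TBX2, 3 of 8 against 21.3% of all genes. TFAP2B was the 1 gene higher in both, against 9.55%. At GATA3 the level was 3.425 and 3.348 RPM in control and 2.999 and 3.105 in knockdown, a log2 ratio of -0.15. TBX2 had 5.03 and 4.725 in control and 4.302 and 4.623 in knockdown (log2 ratio -0.13), and GATA2 had 5.036 and 4.787 against 4.716 and 4.623 (log2 ratio -0.07). TFAP2B had 2.241 and 2.387 RPM in control and 2.619 and 2.437 in knockdown (log2 ratio 0.13). The groups did not overlap at these 4 genes, though the exact permutation p was again 0.33. At the other 4 genes the groups overlapped, with log2 ratios from -0.09 (ISL1) to 0.055 (SOX11). The median log2 ratio was -0.06 over the 8 and -0.03 over all genes.

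Counts over the promoter, here taken as the 2 kb before and the 1 kb after the TSS, were compared by edgeR's quasi-likelihood test with Benjamini-Hochberg adjustment over 20105 promoters. It called 0 of the 8 genes, against 0% of all promoters, with 633 promoters at an unadjusted p under 0.05, while DESeq2 also called 0 (210 unadjusted). None of the 8 had an unadjusted p under 0.05, and every adjusted p was 0.999. Promoter counts of SOX11 were 160 and 238 in control and 183 and 252 in knockdown, the largest log2 change of the 8 (0.17, SE 0.148). GATA3 had the lowest value, -0.12 (SE 0.195), with 89 and 237 reads in control and 88 and 202 in knockdown. The other 6 genes lay between -0.10 (HAND2) and 0.07 (TFAP2B). At TBX2 promoter counts were 214 and 250 in control and 166 and 292 in knockdown, overlapping, with a log2 change of -0.02 (SE 0.149).

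Each 10 kb was also divided into 10 tiles of 1 kb, 80 for the 8 genes. edgeR called 0 of the 80, against 0% of 200503 tiles, with 6299 tiles at an unadjusted p under 0.05 (DESeq2 called 0, 2661 unadjusted). One of the 80 had an unadjusted p under 0.05 by edgeR. It was the SOX11 tile from -2000 to -1001 bp, with 59 and 70 reads in control and 73 and 130 in knockdown (log2 change 0.65, SE 0.251, edgeR adjusted p = 1). The LINC01248 gene, on the other strand, starts at -896 bp of SOX11 and runs through this tile. The tile just upstream of the TBX2 start, which includes most of the window, had 46 and 83 reads in control and 54 and 126 in knockdown (log2 change 0.49, edgeR adjusted p = 1). By edgeR its unadjusted p was 0.0723. Changes of that size were found elsewhere too, at 0.491 in the GATA2 tile from -4000 to -3001 bp and at -0.563 in the HAND2 tile from -1000 to -1 bp.

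**Figure D4:**
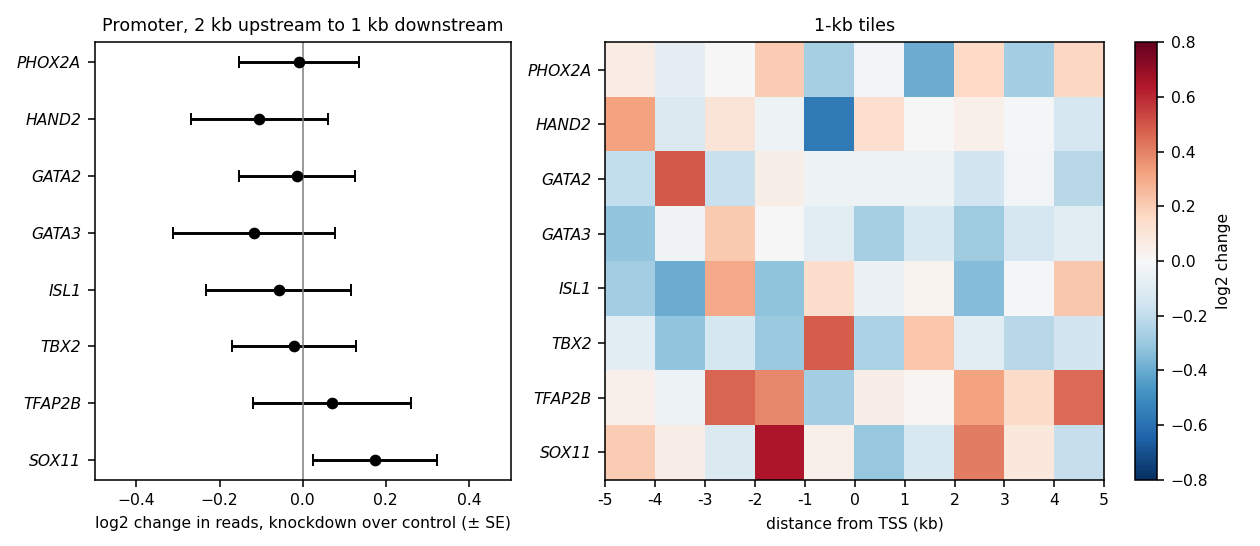
Left, edgeR log2 change in promoter reads (knockdown over control) with its standard error for each of the 8 genes; right, log2 change in each 1-kb tile by distance from the TSS in kb, as colour (red, more reads in knockdown; blue, fewer). The 8 promoter values lie between -0.12 and 0.17, and the strongest tile is SOX11 from -2000 to -1001 bp at 0.65, none past an adjusted p of 0.05.

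Fuzziness, the standard deviation in bp of fragment midpoints around the dyad of a called nucleosome, was lower in both knockdown libraries at PHOX2A, GATA3 and TFAP2B, 3 of 8 against 10.1% of all genes, and higher in both at 0, against 8.49%. At PHOX2A the median fuzziness over the 10 kb was 36.43 and 38.57 bp in control and 34.49 and 36.2 bp in knockdown. TFAP2B had 34.1 and 36.71 bp in control and 32.72 and 33.88 bp in knockdown. GATA3 had 35.54 and 36.65 bp in control and 34.29 and 34.68 bp in knockdown. These differences were -2.157, -2.107 and -1.61 bp (exact permutation p = 0.33 for each). With only nucleosomes of at least 10 reads the GATA3 difference was 0.048 bp, and the other 2 kept their sign. The other 5 genes overlapped between groups, with differences from -0.5075 bp (TBX2) to 0.64 bp (ISL1). The median difference over the 8 was -0.169 bp, against -0.04 bp over all genes. Median fuzziness over the whole library was higher in the deeper libraries (36.45 and 36.43 bp) than in the others (35.13 and 35.15 bp).

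Nucleosomes of 2 libraries were paired when each was the other's nearest, and were called fixed at distance 0, shifted when they overlapped by more than 30 bp, and without partner otherwise. Around the 8 genes 14.9% ± 1.5 of nucleosomes lacked a partner between control and knockdown (SD over 4 pairs of libraries, which share libraries), against 14.22% ± 0.54 between replicates (2 pairs). The median distance between partners was 25.5 bp between treatments and 25.0 bp between replicates. Both pairs of replicates join a shallower and a deeper library (13.84% and 14.61%). The treatment pairs of the same kind, first control with second knockdown and second control with first knockdown, had 16.54% and 15.78%, above both. The treatment pairs of matched depth had 13.85% and 13.42%, below or level with them. After thinning to equal depth the mean shares were 17.57% between treatments and 15.45% between replicates. Over the genome the shares were 16.14% and 16.97%. TFAP2B had the highest share, 22.82% ± 5.16 between treatments and 22.62% ± 0.95 between replicates. TBX2 had the lowest between treatments, 10.43% ± 1.79, against 8.66% ± 2.38 between replicates. GATA2 was close, with 10.6% ± 3.39 between treatments and 7.26% ± 0.62 between replicates. At PHOX2A the share was 16.34% ± 4.01 between treatments and 11.8% ± 5.56 between replicates, overlapping in spread.

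A nucleosome was called constant when its 4 dyads lay within 20 bp. There were 30 such nucleosomes at the 8 genes, 9.3% of the 322 of the first control library, against 9.0% genome-wide. TBX2 held 7 of its 41 and HAND2 held 1 of its 41. The constant nucleosomes included the first downstream ones of GATA2 and ISL1, the one over the SOX11 window, and one at GATA3 at -945, -945, -949 and -954 bp with 14 to 35 reads. In PHOX2A the nearest was at -592, -603, -602 and -607 bp.

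The promoters were searched from -250 to 49 bp, both strands, for 5 motifs. CACGTG, the E-box of MYC and MAX, was in 0 of the 8, against 8.75% of all promoters. CAGATG, another E-box, was in 2 (SOX11 and TFAP2B, against 10.9%). AGATAA, the GATA motif, was in 2 (HAND2 and ISL1, against 7.22%), and TAATTA, a homeodomain motif, in 1 (HAND2, against 3.08%). GCCNNNGGC, the AP-2 motif, was in 4 (GATA2, GATA3, TBX2 and SOX11, against 29.4%). Both GATA matches, at -172 to -167 in HAND2 and at -31 to -26 in ISL1, lay outside nucleosomes in all 4 libraries. The gaps shared by the libraries, -239 to 38 in HAND2 and -251 to 39 in ISL1, cover most of the stretch searched. Nearly any match there would lie outside nucleosomes, so this says nothing particular about GATA motifs. The AP-2 matches of GATA3 (-218 to -210) and SOX11 lay inside a nucleosome in 4 libraries, that of TBX2 (-240 to -232) in 2 and that of GATA2 (-151 to -143) in 0. The median GC content of the 8 promoters was 64.8%, close to the 63.7% of all, and ranged from 43.0% (TFAP2B) to 73.67% (PHOX2A).

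Reads in the 1 Mb around each gene, relative to the median autosomal 1 Mb, ran from 0.81 at ISL1 to 1.46 at GATA2 and 1.45 at PHOX2A. TBX2 stood at 1.21, SOX11 at 1.25, GATA3 at 0.98, HAND2 at 0.89 and TFAP2B at 0.84. GC content was taken in the 10 kb, a shorter span than the 1 Mb. It was 44.33% for ISL1, 61.58% for GATA2, 56.7% for PHOX2A and 63.96% for TBX2. For SOX11 it was 52.01%, for GATA3 59.68%, for HAND2 51.57% and for TFAP2B 43.61%. The parts of base composition and of copy number in the levels were not tested.

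The profiles of the 8 genes were not alike. Read profiles in 100-bp bins over the 10 kb correlated between pairs of the 8 with a median Pearson r of -0.038 (from -0.257 to 0.228). Of 20070 other genes, those closest to the mean profile of the 8 were DBH (dopamine beta-hydroxylase, r = 0.477), DYNLT3 (a dynein light chain, r = 0.472) and DDX10 (an RNA helicase, r = 0.468) over 100 bins, where the median gene had r = 0.036. These r are descriptions, since the bins of one gene share libraries, depth and base composition.

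A further 12 adrenergic factors and 12 mesenchymal factors served as comparison. The window was empty in all 4 libraries at 3 of the adrenergic genes (KLF7, HAND1 and EYA1, named after their values were seen) and at 2 of the mesenchymal genes (IRF1 and MAFF, likewise). The share over all genes was 32.3%. The median gap difference was -12.75 bp for the adrenergic and -4.25 bp for the mesenchymal list. The first downstream dyad lay nearer the TSS in both knockdown libraries at 6 adrenergic and 0 mesenchymal genes (14.7% of all genes). It lay farther at 0 and 3 (16.3% of all genes). The window of INSM1, a zinc-finger factor of neuroendocrine cells, differed between groups at both replicate numbers but in opposite directions. It was empty in the first control and second knockdown library and occupied in the other 2, by nucleosomes of 11 and 6 reads, with gaps of 132 and 38 bp in control and 41 and 145 bp in knockdown. No gene of either list was empty in both libraries of one group and occupied in both of the other. Each list had 5 genes empty in both controls, and 2 adrenergic and 5 mesenchymal genes were occupied in both. Over all such genes the shares that switched were 5.25% and 7.73%, so 0 among so few is no contrast. None had a gap over 500 bp in all 4 libraries, against 195 of 20078 genes. The median of the mean gap was 194.6 bp and 180.0 bp, each between the 206.5 bp of the 8 genes and the 168.8 bp of all genes.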

How the data were processed

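MNase-seq was analysed in 2 control and 2 MYCN-knockdown libraries of BE(2)C cells. Per the study's methods and processing notes, the authors trimmed reads (Trim Galore 0.4.4, base calls from CASAVA 1.9), mapped them to hg19 with Bowtie2 2.2.4, kept proper pairs of mapping quality above 10, removed duplicates and called nucleosomes with Genetrack (version not given in the sources used here), leaving out those of low support. The deposited files give for each nucleosome a whole-number read count, used here as counts, although the methods call occupancy normalized, and a fuzziness score in bp; the smallest deposited count was 6. Libraries held 147370973 to 242544884 reads. Dyads were taken as the middle of each called interval, and TSSs from canonical GENCODE v44 transcripts lifted to GRCh37; no nucleosome lay past a chromosome end on any of 24 chromosomes.

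Gap widths, windows, partners and reads were computed in Python 3.11.15. Counts were tested with edgeR 4.0.16 (TMM, group only, mean of at least 10 reads, adjusted p under 0.05) in R 4.3.3, with DESeq2 1.42.0 as an alternative, and the tests were checked on simulated data. The genes and lists were chosen with earlier results of these data known. Named genes were the 8, comparison genes with gaps over 500 bp or switched windows, the 3 likest profiles, and some neighbours within 5 kb. The 5 comparison genes with empty windows were named outside this rule, after their values were seen. Alternatives were another TSS, the gap that holds the TSS, a minimum of 10 reads, equal depth, 50% inside and other windows. Pairing by number and leaving out each library were further ones. Equal depth was reached by a single random thinning of the reads of called nucleosomes, which could only remove nucleosomes.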

Additional observations from a re-analysis of the deposited data

How the results depend on the processing

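The limits of these values come from 2 libraries in each group and from nucleosomes that rest on few reads: a window or gap at one gene can turn on 1 nucleosome near the minimum of 6 reads. Replicate numbers marked no stated shared batch. Deviations of same-numbered libraries correlated at 0.299 over promoters and 0.204 over tiles, and depth differed by number. With a replicate block edgeR called 0 of the 8 promoters and 0 of the 80 tiles (1173 and 9851 unadjusted in all), the median gap difference was 5.75 bp ± 8.485 (SD over 2 pairs), the median fuzziness difference -0.169 bp ± 0.106, the median read difference -0.06 ± 0.036 (log2), and the share of nucleosomes without partner 13.63% in same-numbered pairs. The block changed no call among the 8 genes, and over the genome it called 1 of 200503 tiles in place of 0.

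The median gap difference over the 8 genes was 110.75 bp with at least 10 reads and 56.5 bp at equal depth. With the gap that holds the TSS this median was 42.25 bp. The causes were not tested. The share of nucleosomes without partner was 25.04% with a pair limit under 74 bp (replicates 23.38%), 21.09% with at least 10 reads (replicates 23.52%) and 17.57% at equal depth (replicates 15.45%). Leaving out each library in turn moved the median gap difference from -11.25 to 33.5 bp and the median fuzziness difference from -1.403 to 0.686 bp, so neither kept its sign. The median read difference stayed negative, from -0.10 to -0.04. Windows empty in all libraries numbered 2 to 4 throughout. Leaving out each library in turn turned the sign of promoter log2 changes at 5 genes, none near an adjusted p of 0.05: PHOX2A ran from -0.18 to 0.18, GATA3 from -0.41 to 0.31, ISL1 from -0.20 to 0.13, TBX2 from -0.26 to 0.21 and TFAP2B from -0.13 to 0.26. A library left alone in its group was assumed to vary like the other group. These fits called 0 to 33 tiles over the genome and 0 of the 80.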
